A study of Codonopsis pilosula with 12 samples.

Results

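Leaves of droughted *Codonopsis pilosula* seedlings were compared between cultivar Gandang No. 1 (group DG1) and cultivar Weidang No. 1 (group DW1), with 3 libraries in each group, so that the comparison was between 6 of the 12 libraries of the series, while all 12 entered the fit that set the spread between libraries and every p-value. Both groups were potted seedlings, 4 weeks past emergence, whose watering had been withheld for 4 days under a rain-proof shed. The remaining libraries, 3 of CG1 (Gandang No. 1) and 3 of CW1 (Weidang No. 1), came from well-watered seedlings on day 0, so that water state and day cannot be told apart. G1 is a selected cultivar and W1 a locally promoted variety. The labels describe samples that mix 2 pots, while the study's methods give 1 pot per replicate, so n = 3 counts libraries and p-values measure the spread between libraries only. The table held 55270 assembled genes. Rows whose best SwissProt hit was not a land plant protein (4642 rows, of which 2549 hit human proteins) were removed before the fit, because replicate 1 of DG1 carries RNA of another organism. This left 50628 rows, of which 27132 passed a filter on low counts and were tested.

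*C. pilosula* is a medicinal herb of the bellflower family whose root is used. When a leaf loses water, abscisic acid closes its stomata, growth by cell expansion and division slows, and cells build protectants such as proline, late embryogenesis abundant (LEA) proteins and chaperones. Excess light on a leaf with closed stomata yields reactive oxygen, which peroxidases, catalase and glutathione enzymes remove, and phenolic compounds, waxes and chlorophyll breakdown are further parts of the known response. Water channels (aquaporins), xyloglucan enzymes and expansins belong to the growing, well-watered state.

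A pair of libraries stood apart from the others and touched every result. In replicate 1 of DG1, 9.2% of all TPM (transcript abundance scaled to a fixed library total) fell in the removed rows, against 3.76% and 3.87% in the other DG1 libraries and 3.8%, 3.81% and 3.58% in DW1. The group means were 5.61% ± 3.11 in DG1 and 3.73% ± 0.133 in DW1 (SD, n = 3 each; two-sided exact permutation p = 0.3, with 0.1 the smallest p that 3 against 3 allows), and without that library DG1 averaged 3.82%. The same rows held 3.55% to 5% of TPM in the well-watered libraries. The removal thus took signal from every library, and how much of it came from the plant's own genes was not tested. Nor was the removal complete: among rows kept, 275 genes reached 10 TPM in replicate 1 of DG1 while staying under 1 TPM in the other 11. Only 13 of them had a land plant SwissProt hit, led by a pair of 9-lipoxygenase fragments (LOX1.5, DN19061_c0_g2 and DN18862_c2_g1, at 160 and 138 TPM). In the other DG1 libraries such genes numbered 3 and 5. Replicate 1 of DW1 stood apart in another way, with 426 tested genes at 5-fold or more above each of the other drought libraries, against 34 and 25 in the other DW1 libraries and 146, 16 and 12 in DG1. In this library 12 annotated genes reached 10 TPM while staying under 1 TPM in the other 11, and they were of mixed kinds. The highest were CYP71E1 (DN21328_c1_g2, 27.85 TPM), TPL (DN20229_c0_g2, 27.75 TPM) and SUVH5 (DN18735_c0_g2, 25 TPM). Others were the dirigent protein DIR19 (DN20446_c1_g4, 19.2 TPM), an anther-specific protein (DN19336_c0_g2, 19 TPM) and the actin ACT7 (DN13216_c1_g3, 17.65 TPM). The suberin acyltransferase GPAT5 (DN17232_c0_g5, 11.9 TPM) and the endodermal factor MYB36 (DN15532_c0_g7, 11.1 TPM) lay near the 10 TPM limit. By the median correlation of log2 CPM across genes, this library was closer to CW1 (0.914) than to its own replicates (0.894). No other library was closer to its own cultivar on the other day than to its own group. Some others were closer to the other cultivar on the same day. Replicates 2 and 3 of DW1 were closer to DG1 (0.92 and 0.924) than to their own group (0.913 and 0.909). CG1 replicate 1 was closer to CW1 (0.929) than to its own group (0.922).

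**Figure D1:**
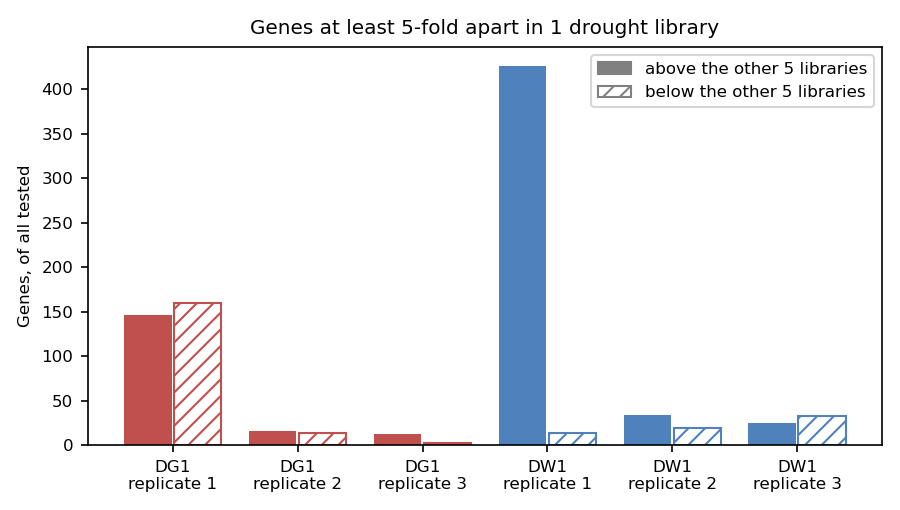
Bars count the tested genes (of 27132) whose TPM in 1 drought library lay at least 5-fold above (filled) or below (hatched) each of the other 5, with DG1 libraries on the left and DW1 libraries on the right. Replicate 1 of DW1 had 426 genes above and 14 below, and replicate 1 of DG1 had 146 above and 160 below.

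Tissue markers were read in the same way. Of 14 genes of a root list, 2 were at 0 TPM in replicate 1 of DW1, against 8 and 7 in its other replicates and 8, 9 and 7 in DG1. Their sums overlapped, at 106 to 142 TPM in DG1 and 87.9 to 139 TPM in DW1, because the membrane-shaping protein RHD3, which leaves also express, makes up most of them. The defining Casparian strip protein genes were at or near 0: the highest value was 0.29 TPM in DG1 and 4.74 TPM in DW1, in its replicate 1. In CG1 replicate 1 one of them reached 27.4 TPM. The vascular and secondary wall list (13 genes) summed to 56.9 to 71.5 TPM in DG1, against 119 TPM in replicate 1 of DW1 and 70.6 and 77.7 TPM in its other replicates. The guard cell and epidermis list (14 genes) summed to 51.5, 57.8 and 42 TPM in DG1, against 71.5, 66 and 58 TPM in DW1. These sums came close to overlap. Of the list's 12 tested genes, 2 stood lower at an unadjusted p under 0.05 and 0 higher, where 8.5% and 6.62% of all genes did. The highest list member in DW1, EPFL9 (DN13810_c1_g2), had 3.7, 15.4 and 4.17 TPM in DG1, against 19.93, 30.72 and 22.33 TPM in DW1. TTG1 (DN16155_c1_g3) lay the other way, with 19.25, 8.94 and 8.83 TPM in DG1, against 8.06, 5.7 and 7.01 TPM in DW1. With EPFL9 left out, the sums of this list overlapped between the groups. The 51 nuclear light harvesting and photosystem genes, the leaf's own markers, summed to 18070 TPM in replicate 1 of DG1, against 106300 and 89750 TPM in the other DG1 libraries and 85160 to 138100 TPM in DW1. The part of these markers in the results was not tested, and lower RNA per cell cannot be told apart from fewer cells of a type. Results are therefore given with all libraries and, for most lists, also without each of these 2.

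Only 2 of 27132 genes passed the test (0.00737%), both at least 4-fold lower in DG1 and thus DEGs. A xyloglucan endotransglucosylase/hydrolase (XTH, DN13462_c0_g3), of a family that cuts and rejoins the xyloglucan tethers of growing walls, had 6.81, 5.84 and 3.45 TPM in DG1, against 24.1, 25 and 21.1 TPM in DW1. It fell to 5.37 ± 1.73 TPM in DG1, against 23.4 ± 2.04 TPM in DW1 (SD, n = 3 each), a log2 fold change of -2.04 ± 0.24 (SE) with an adjusted p of 0.0469. All DW1 libraries lay well above all DG1 libraries. An unannotated transcript (DN18318_c0_g1, 2119 bp) also fell, by 2.73 ± 0.29 on the log2 scale (adjusted p = 0.0323). Its expected counts were 125, 128 and 84.5 in DG1, against 834, 705 and 643 in DW1. On the TPM scale, which divides by an effective length estimated per library, the gap was narrower: 27.4, 9.94 and 11.5 TPM in DG1, against 31.6, 42.9 and 33.4 TPM in DW1. Both calls were fragile. The XTH had an adjusted p of 0.0827 without DG1 replicate 1 and 0.0851 without DW1 replicate 1, and of 0.192 when the 6 drought libraries were fitted alone. For the transcript the same fits gave 0.0827, 0.0416 and 0.183. The count of genes past the test was 0 without DG1 replicate 1, DG1 replicate 3 or CG1 replicate 3, 1 without DW1 replicate 1 (0.00346%) or CW1 replicate 2, 4 without DW1 replicate 3 or CG1 replicate 1, and 40 when DG1 replicate 2 was left out. The log2 fold change of the XTH was -2.2 without DG1 replicate 1 and -2.09 without DW1 replicate 1. For the transcript it was -2.87 in each of these fits.

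On the scale of counts the cultivar gap of both genes differed between water states. In well-watered leaves the XTH had 129, 102 and 95 TPM in CG1, against 54.6, 61.9 and 77.6 TPM in CW1. There G1 stood above W1, although the gap missed the test (log2 fold change 0.9 ± 0.23, adjusted p = 0.0997). The transcript had expected counts of 563, 718 and 651 in CG1, against 326, 694 and 384 in CW1, a gap of 0.71 on the log2 scale that missed the test (adjusted p = 0.266). But on the TPM scale G1 was not the higher cultivar there, with 26.5, 27 and 25.5 TPM in CG1, against 32.3, 29 and 40.4 TPM in CW1. The difference between the gaps, fitted on counts, was -2.94 ± 0.33 for the XTH and -3.44 ± 0.39 for the transcript (adjusted p = 0.0225 for each), and for the transcript it rests on the count scale. These were 2 of the 4 genes (0.0147% of those tested) for which this difference passed. Among named genes, 0 passed it when CG1 replicate 2 or 3, any 1 of the CW1 libraries or DG1 replicate 2 was left out, 1 passed when DW1 replicate 2 or DG1 replicate 3 was, and 8 when CG1 replicate 1 was.

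A further 14 genes had an adjusted p from 0.05 to 0.06 (4 above DW1 in DG1 and 10 below), and 78 lay under 0.1 (32 above and 46 below). At an unadjusted p under 0.05, 1795 genes stood higher in DG1 (6.62%) and 2305 lower (8.5%), and all 3 DG1 libraries lay above all 3 DW1 libraries in 1906 genes (7.02%) and below them in 2966 (10.9%). Without DG1 replicate 1 these unadjusted shares were 4.69% and 6.77%, without DW1 replicate 1 they were 4.9% and 5.72%, and without both they were 3.89% and 4.94%. The number of calls also depended on the tool. The Wald test of DESeq2, the package the study used for its own DEGs, called 1133 genes (437 higher and 696 lower in DG1). Limma-voom with library quality weights called 58 (26 higher and 32 lower). Both included the 2 genes above.

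Among the annotated genes nearest the threshold on the higher side, several belong to the shikimate and phenylpropanoid route, which turns sugar into aromatic amino acids, lignin and flavonoids. A DAHP synthase (SHKB, DN13782_c0_g7), the entry enzyme of the shikimate pathway, had 35.6, 17.8 and 13.8 TPM in DG1, against 3.14, 3.18 and 2.11 TPM in DW1 (log2 fold change 3.09 ± 0.42, adjusted p = 0.0508). A second assembled DAHP synthase gene (DN16213_c0_g4) had 30.5, 10.9 and 7.41 TPM in DG1, against 1.75, 0.79 and 0.41 TPM in DW1 (4.1 ± 0.71, adjusted p = 0.077). Cinnamoyl-CoA reductase (CCR1, DN19420_c1_g1), which opens the lignin branch, had 434, 297 and 391 TPM in DG1, against 103, 168 and 126 TPM in DW1 (1.57 ± 0.27, adjusted p = 0.0731). None of these overlapped between the groups, replicate 1 was the highest DG1 library for each, and without both replicates 1 the log2 fold changes were 2.64, 3.97 and 1.27. A caffeoyl-CoA O-methyltransferase (DN14999_c1_g7), which methylates lignin precursors, had 41.3, 26.2 and 28.4 TPM in DG1, against 10.8, 15.9 and 13.1 TPM in DW1 (adjusted p = 0.0882).

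Other genes on this side came from several processes. The early light-induced protein ELIP1 (DN19117_c0_g2), which binds pigment in stressed thylakoids, had 168, 351 and 454 TPM in DG1, against 42.4, 9.1 and 7.81 TPM in DW1 (4.38 ± 0.8, adjusted p = 0.0882). Here replicate 1 of each group lay closest to the other group, and the log2 fold change was 5.74 without both. The triacylglycerol lipase LIP2 (DN16316_c0_g1) had 59.6, 108 and 199 TPM in DG1, against 9.75, 15.9 and 8.98 TPM in DW1 (3.29 ± 0.51, adjusted p = 0.0614). The stromal HSP70 chaperone (DN13717_c0_g5) had 28.8, 19.5 and 31.9 TPM in DG1, against 13.6, 11.2 and 11.7 TPM in DW1 (1.32 ± 0.17, adjusted p = 0.0508). A cysteine proteinase inhibitor (DN20828_c0_g7) averaged 31.5 ± 8.69 TPM in DG1 and 8.48 ± 1.31 TPM in DW1, and the cytokinin synthesis enzyme IPT5 (DN15742_c0_g3) 12.9 ± 2.27 TPM in DG1 and 5.83 ± 0.506 TPM in DW1 (SD, n = 3 each; adjusted p = 0.0614 and 0.0652). The rule also named the quinone oxidoreductase-like At4g13010 (DN14583_c0_g2, log2 fold change 1.68), the acyltransferase GPAT3 (DN17742_c0_g1, 1.22) and the oxygenase-like At3g21360 (DN14965_c0_g2, 1.04).

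On the lower side the pectin methylesterase PMEU1 (DN18657_c1_g2), which strips methyl groups from wall pectin, had 20, 52.9 and 35.3 TPM in DG1, against 150, 142 and 84.7 TPM in DW1 (log2 fold change -1.9 ± 0.26, adjusted p = 0.0508). PMR5 (DN13934_c1_g1), a wall protein that in Arabidopsis affects pectin composition, had 3.12, 9.3 and 5.75 TPM in DG1, against 31.1, 23.3 and 18.2 TPM in DW1 (-1.88 ± 0.33, adjusted p = 0.0847). The groups did not overlap, and replicate 1 was the lowest DG1 and the highest DW1 library for both. IDN2 (DN14795_c0_g1), which in Arabidopsis acts in RNA-directed DNA methylation, had 0.19, 1.07 and 0.42 TPM in DG1, against 9.7, 6.07 and 4.44 TPM in DW1 (-3.68 ± 0.52, adjusted p = 0.051). The vesicle protein SCAMP1 (DN13865_c0_g5) averaged 3.09 ± 0.706 TPM in DG1 and 12.1 ± 4.31 TPM in DW1, and the squamosa promoter-binding protein SBP1 (DN16453_c1_g8) had 5.52, 13.8 and 10.3 TPM in DG1, against 42.2, 43.3 and 32.5 TPM in DW1. The other named genes on this side were a monoterpenol dehydrogenase (DN15749_c0_g9, log2 fold change -3.32), the receptor kinases At2g19210 (DN14867_c0_g1, -2.26) and At5g58300 (DN15340_c1_g5, -1.48), the TPR-containing thioredoxin TTL1 (DN15073_c0_g2, -1.91), the hexosaminidase HEXO3 (DN17205_c1_g1, -1.11) and the mevalonate pathway enzyme MVD2 (DN13908_c0_g2, -1.03). Without both replicates 1 each named gene in this and the preceding paragraphs kept its sign. Since these genes were chosen for small p and groups without overlap, their sign could hardly change, so this is no test of them.

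**Figure D2:**
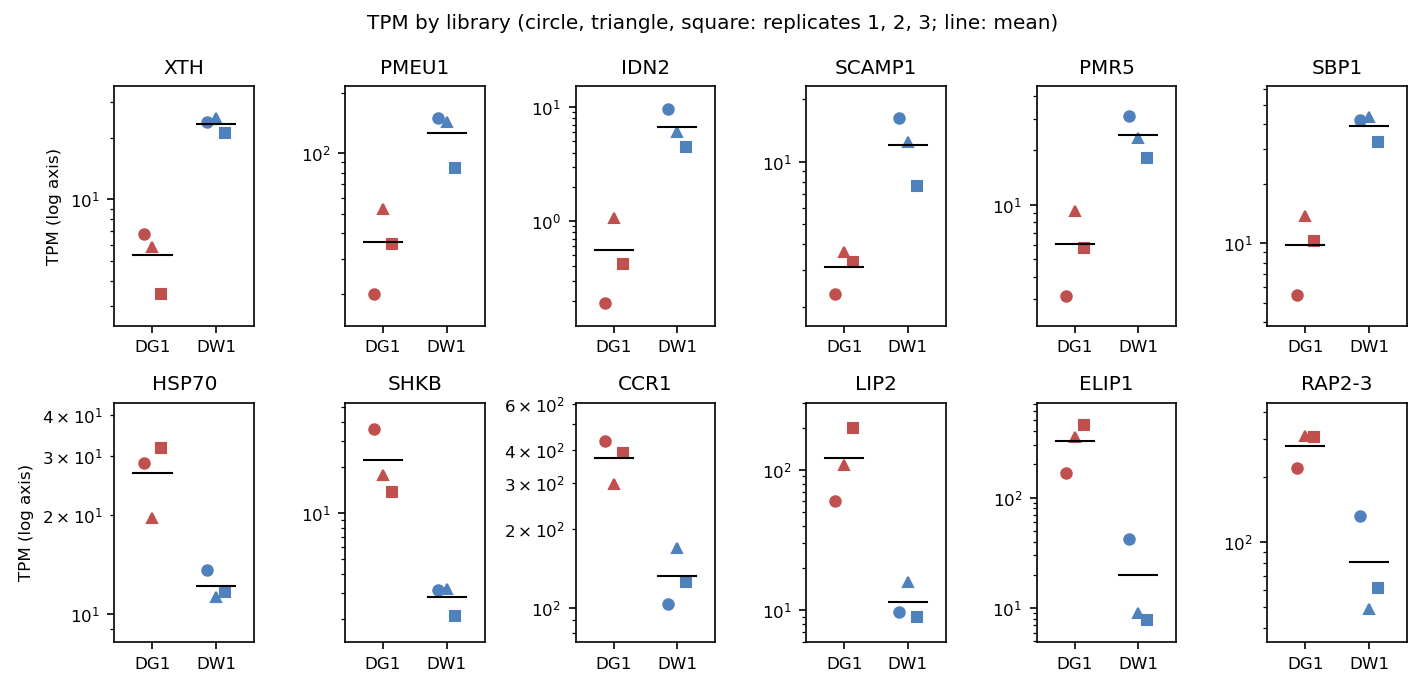
Each panel gives the TPM of 1 gene on a log axis, with DG1 on the left and DW1 on the right, 1 symbol per library (circle, triangle and square for replicates 1, 2 and 3) and a line at the group mean. The upper panels show 6 genes lower in DG1 and the lower panels 6 higher, and in none do the groups overlap, as with XTH at 3.45 to 6.81 TPM in DG1 and 21.1 to 25 TPM in DW1.

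Lists of genes, set by words in their annotation, are described below by the number of members at an unadjusted p under 0.05. These counts are to be read against the 6.62% (higher in DG1) and 8.5% (lower) of all genes tested, and the median log2 fold change of a list against -0.027 for all genes. Counts without a library are to be read against the smaller shares of the same fit. These were 4.69% and 6.77% without DG1 replicate 1, 4.9% and 5.72% without DW1 replicate 1, and 3.89% and 4.94% without both. Apart from the XTH, no member of any list passed the adjusted test. Genes that share a protein hit may be pieces or near copies of 1 gene, between which reads were divided.

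Wall building and growth lists held more members lower in DG1 than the background. Of 53 tested xyloglucan enzymes and expansins, 18 stood lower and 0 higher, with a median log2 fold change of -0.74. Part of this lay in 1 library: expansin A10 (EXPA10, DN18192_c0_g4), which loosens walls, had 13.6, 94 and 56.8 TPM in DG1, against 648, 106 and 121 TPM in DW1, and expansin B3 (EXPB3, DN17391_c0_g1) had 1.85, 32.1 and 7.17 TPM in DG1, against 298, 76.8 and 38.9 TPM in DW1. Without DW1 replicate 1 the list had 9 members lower, 1 higher and a median of -0.23, and without DG1 replicate 1 it had 17 lower and a median of -0.9. Of 118 cellulose and pectin genes, 30 stood lower and 6 higher (median -0.57). Without DW1 replicate 1 the counts were 15 and 5 (median -0.42), and without DG1 replicate 1 they were 24 and 7 (median -0.61). The cellulose synthase subunit CESA2 (DN16945_c2_g2) had 31.3, 40.1 and 30.2 TPM in DG1, against 105, 78 and 51.4 TPM in DW1, while cellulose synthase-like CSLG2 (DN21412_c0_g1) lay the other way, with 355, 180 and 222 TPM in DG1, against 38.1, 136 and 61.8 TPM in DW1. Among 49 genes for callose and the beta-1,3-glucanases that digest it, 14 stood lower and 2 higher. The counts were 10 and 0 without DW1 replicate 1, and 12 and 0 without DG1 replicate 1. The callose synthase CALS1 (DN16026_c0_g4) had 2.92, 4.99 and 3.85 TPM in DG1, against 47.4, 16.4 and 7.9 TPM in DW1.

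Genes of the cell cycle and histones showed the same dependence on 1 library. Of 165 tested, 44 stood lower in DG1 and 1 higher (median -0.53). Without DW1 replicate 1 the counts were 17 and 3 (median -0.1), and without DG1 replicate 1 they were 31 and 1 (median -0.5). The summed level of the list was 5446, 6216 and 5753 TPM in DG1, against 7864 TPM in replicate 1 of DW1 and 5907 and 5875 TPM in its other replicates, so that outside that library the groups overlapped. The D-type cyclin CYCD3-3 (DN19259_c0_g2) had 12.5, 13.2 and 18.6 TPM in DG1, against 37.8, 28.9 and 25.4 TPM in DW1. In a list of housekeeping genes, 14 of 79 stood lower and 6 higher (9 and 5 without DW1 replicate 1), and an alpha-tubulin (TUBA, DN17190_c0_g1), a subunit of microtubules, had 262, 384 and 371 TPM in DG1, against 886, 813 and 527 TPM in DW1. Neither CYCD3-3 nor TUBA overlapped between the groups, and the log2 fold changes without DW1 replicate 1 were -0.66 and -0.97. In the auxin list, which covers the hormone that drives expansion, 13 of 104 stood lower and 1 higher, or 12 and 2 without DW1 replicate 1, and 6 and 2 without DG1 replicate 1. The auxin importer LAX2 (DN20158_c1_g1) had 35.4, 37.8 and 29.6 TPM in DG1, against 56.3, 52.6 and 48.1 TPM in DW1. The auxin-inducible SAUR20 (DN19665_c0_g1) had 1.78, 4.75 and 5.44 TPM in DG1, against 10.4, 21.4 and 8.57 TPM in DW1.

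Aquaporins depended on a single library. Of 28 tested, 10 stood lower in DG1 and 1 higher (median -0.48), but without DW1 replicate 1 the counts were 1 and 2 and the median 0.04, and without DG1 replicate 1 they were 5 and 0 and the median -0.61. The tonoplast channel TIP2-1 (DN14138_c1_g4) had 0.2, 1.68 and 0.99 TPM in DG1, against 242, 19.7 and 5.18 TPM in DW1, and a second TIP2-1 gene (DN16628_c0_g5) had 0.23, 0 and 0.18 TPM in DG1, against 68, 0.27 and 0.87 TPM in DW1. An RB7-type channel (DN13295_c0_g3), first known from tobacco roots, had 115, 128 and 106 TPM in DG1, against 744, 163 and 130 TPM in DW1. In each of these replicate 1 was the highest DW1 library by a wide margin. In well-watered leaves the first TIP2-1 gene (DN14138_c1_g4) had 227, 47.8 and 15.2 TPM in CG1, against 101, 344 and 375 TPM in CW1, so that replicate 1 of DW1 lay within the range of well-watered W1. The vascular list was highest in that library among the droughted ones, at 119 TPM, and was as high in well-watered leaves (109 to 125 TPM in CG1 and 96.2 to 134 TPM in CW1); its part in the aquaporin values was not tested.

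Peroxidases were among the enzymes the study assayed for removal of reactive oxygen. Of 44 class III peroxidases, which act mostly in the wall, 10 stood lower in DG1 and 3 higher, with a median of -0.91. Without DW1 replicate 1 the counts were 4 and 2 (median 0.03), and without DG1 replicate 1 they were 5 and 3 (median -1.04). Members went both ways. PER47 (DN18265_c0_g7) had 198, 114 and 101 TPM in DG1, against 51.8, 67.6 and 63.6 TPM in DW1, while PER3 (DN21423_c0_g2) had 7.07, 16.2 and 6.72 TPM in DG1, against 64.2, 91.8 and 32.1 TPM in DW1 (adjusted p = 0.209 and 0.0992). The single catalase gene (DN17155_c0_g3) had 792, 1285 and 1562 TPM in DG1, against 578, 590 and 870 TPM in DW1, with overlap (log2 fold change 0.51 ± 0.41, unadjusted p = 0.24, edgeR). None of 5 superoxide dismutases (log2 fold changes from -0.18 to 0.39) and none of 6 ascorbate peroxidases (-0.65 to 0.53) had an unadjusted p under 0.05. The cytosolic APX1 (DN18266_c2_g1) had 368, 437 and 470 TPM in DG1, against 280, 311 and 361 TPM in DW1, without overlap (0.53 ± 0.28, adjusted p = 0.407).

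Glutathione S-transferases, which couple glutathione to toxic compounds, had 7 of 20 members higher and 1 lower (median 0.5). Without DG1 replicate 1 the counts were 6 and 0 (median 0.28), and without DW1 replicate 1 they were 4 and 0 (median 0.61). GSTU17 (DN13342_c0_g1) had 568, 431 and 398 TPM in DG1, against 137, 197 and 282 TPM in DW1, and PARB (DN17852_c2_g1) had 233, 190 and 196 TPM in DG1, against 62.2, 141 and 69.7 TPM in DW1. The dehydroascorbate reductase DHAR2 (DN15882_c0_g1), which regenerates ascorbate, had 239, 260 and 221 TPM in DG1, against 167, 191 and 156 TPM in DW1. These 3 genes did not overlap between the groups, and their adjusted p-values were 0.169, 0.174 and 0.283. Other glutathione and thioredoxin enzymes had 11 of 62 members higher and 2 lower (6 and 2 without both replicates 1), among them an h-type thioredoxin (DN17017_c1_g1) with 1766, 817 and 926 TPM in DG1, against 438, 530 and 423 TPM in DW1.

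Heat shock proteins, chaperones that hold damaged proteins, had 14 of 79 members higher and 3 lower (median 0.35). The counts were 7 and 4 without DG1 replicate 1, and 22 and 2 without DW1 replicate 1. A class I small heat shock protein (DN16624_c0_g3) had 1195, 657 and 688 TPM in DG1, against 242, 243 and 40.4 TPM in DW1 (2.41 ± 0.58, adjusted p = 0.15). The chloroplast small heat shock protein HSP21 (DN12870_c0_g1) had 161, 153 and 152 TPM in DG1, against 36.4, 73 and 33.5 TPM in DW1 (1.78 ± 0.36, adjusted p = 0.118). DG1 was nearly flat for HSP21, and its log2 fold change was 1.58 without both replicates 1. The cognate chaperone HSC-I (DN20560_c0_g1) lay the other way, with 31.5, 28.3 and 36.2 TPM in DG1, against 47, 58.9 and 46 TPM in DW1. Of 7 LEA genes, 1 stood higher and 0 lower, a D-34 type gene (DN18357_c1_g4) at 1.7, 19.2 and 2.31 TPM in DG1, against 0.83, 1.46 and 0.95 TPM in DW1, where replicate 2 alone set the DG1 mean.

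Proline, an osmoprotectant that the study measured, is made from glutamate or ornithine. Of 8 genes, 3 stood higher in DG1 and 0 lower. The counts were 2 and 0 without DG1 replicate 1, 3 and 0 without DW1 replicate 1, and 3 and 1 without both. The transporter PROT2 (DN16175_c0_g2) had 50.4, 43.9 and 41.7 TPM in DG1, against 17.5, 33.1 and 18.2 TPM in DW1 (1.12 ± 0.31, adjusted p = 0.187). Ornithine aminotransferase (DELTA-OAT, DN21109_c0_g5) had 29.5, 25.1 and 25.7 TPM in DG1, against 21.9, 20.3 and 14.7 TPM in DW1. The rate-limiting synthase of the glutamate route (DN15631_c0_g4) had 18.3, 27.1 and 30 TPM in DG1, against 36.2, 31 and 22.8 TPM in DW1, with overlap (log2 fold change -0.12). The breakdown enzymes ALDH12A1 (DN18242_c0_g2) and proline dehydrogenase POX1 (DN19235_c0_g2) had log2 fold changes of 0.41 and 0.37. PROT2 and DELTA-OAT did not overlap between the groups, while ALDH12A1, the other member with an unadjusted p under 0.05, did.

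Light harvesting genes differed widely between the DG1 libraries themselves. Of 50 tested light harvesting and photosystem genes, 5 stood lower and 1 higher (median -0.51), and 13 lay lower without overlap. Without DG1 replicate 1, the library where their sum was 18070 TPM, 6 stood lower and 1 higher (median -0.09), and without DW1 replicate 1 the counts were 6 and 2 (median -0.72). Without both, 14 stood lower and 2 higher (median -0.31), where 4.94% of all genes stood lower. Calvin cycle genes, with sums of 12770, 62420 and 52490 TPM in DG1, against 51780, 66170 and 64790 TPM in DW1, had 2 of 22 members higher and 1 lower. A short assembled LHCB1.1 fragment (DN13243_c0_g6, 300 bp) had 346, 1823 and 1272 TPM in DG1, against 1990, 12320 and 8388 TPM in DW1. An antenna protein gene, CAB21 (DN14528_c0_g3), had 105, 1024 and 755 TPM in DG1, against 1497, 1490 and 2367 TPM in DW1. Of 23 chlorophyll synthesis genes, 3 stood lower and 0 higher, or 1 and 0 without DG1 replicate 1 and 5 and 0 without DW1 replicate 1. The gatekeeper HEMA1 (DN19983_c0_g4), which makes the first committed precursor, had 20.8, 43.7 and 35.9 TPM in DG1, against 63.3, 98.9 and 65.4 TPM in DW1 (-1.08, adjusted p = 0.194, or -0.98 without both replicates 1). Of 9 chlorophyll breakdown genes, 2 stood higher and 0 lower (median 0.66). Pheophytinase (PPH, DN14876_c1_g1), which removes the phytol tail, had 100, 57.9 and 60.1 TPM in DG1, against 24.9, 53.9 and 30.2 TPM in DW1, and the STAY-GREEN gene SGR (DN14798_c1_g2) overlapped, with 68.3, 22.1 and 29.8 TPM in DG1, against 6.52, 40 and 6.41 TPM in DW1. Without DG1 replicate 1 no breakdown gene had an unadjusted p under 0.05 (median 0.64), and without DW1 replicate 1 only 1 did (median 0.3).

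**Figure D3:**
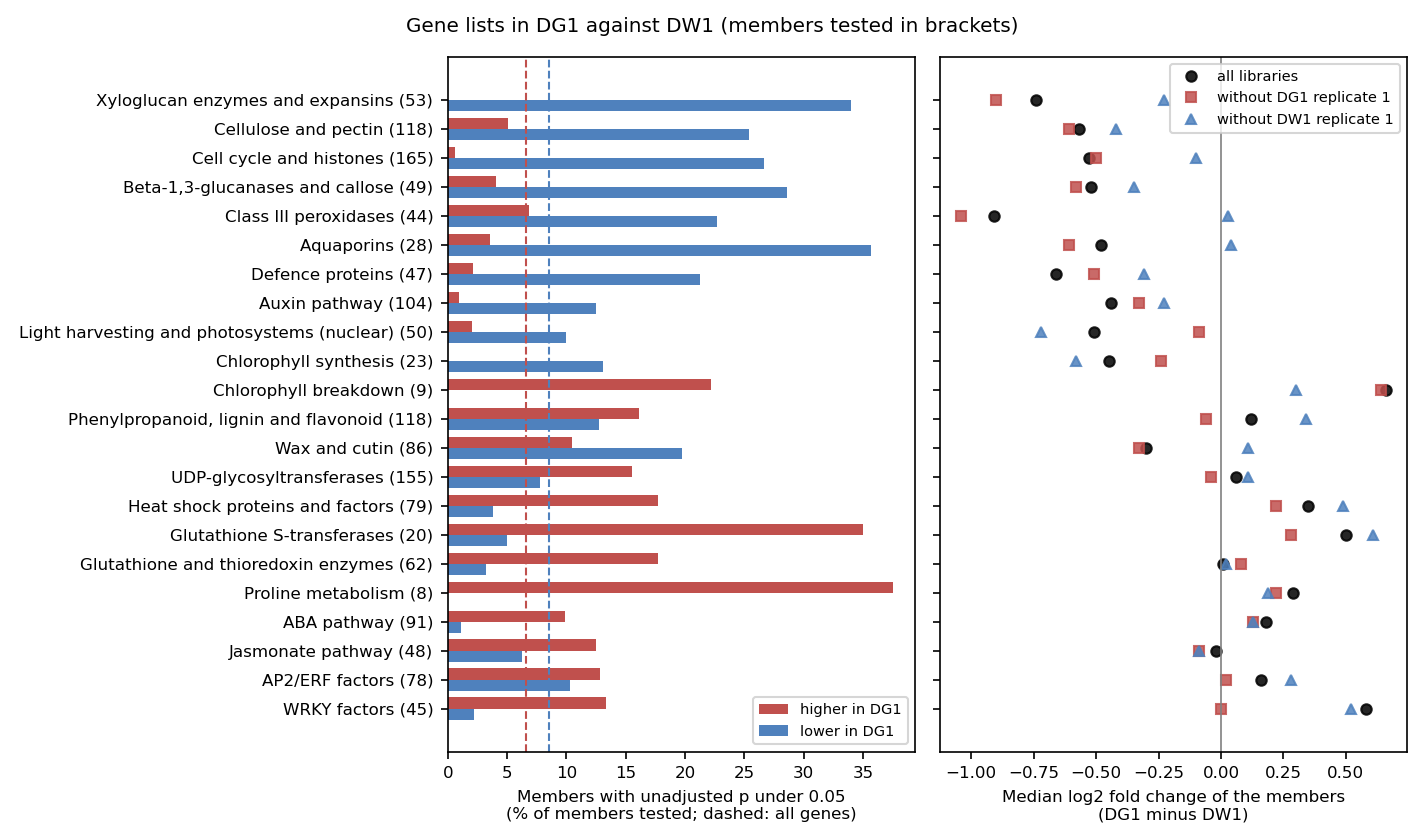
Left, the percentage of tested members of each list with an unadjusted p under 0.05, higher (red) or lower (blue) in DG1, with dashed lines at 6.62% and 8.5% for all genes. Right, the median log2 fold change of each list with all libraries (circles), without DG1 replicate 1 (squares) and without DW1 replicate 1 (triangles); the aquaporin median is -0.48 with all libraries and 0.04 without DW1 replicate 1.

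Phenylpropanoid, lignin and flavonoid genes went both ways, with 19 of 118 higher and 15 lower (12 and 7 without DW1 replicate 1, 12 and 10 without DG1 replicate 1). Chalcone synthase (CHS, DN12851_c1_g4), which commits carbon to flavonoids, had 3356, 2143 and 1744 TPM in DG1, against 677, 891 and 683 TPM in DW1 (1.77 ± 0.53, adjusted p = 0.201). The chalcone isomerase CHI3 (DN13923_c0_g1), the next step, had 312, 215 and 161 TPM in DG1, against 111, 120 and 81.7 TPM in DW1. In both genes the DG1 libraries lay above all DW1 libraries, with replicate 1 the highest. On the lower side the flavonol synthase FL (DN18339_c1_g6) had 1.06, 4.78 and 0.41 TPM in DG1, against 6.5, 10.7 and 13.2 TPM in DW1. The enzymes that add sugars to such compounds, the UDP-glycosyltransferases, had 24 of 155 members higher and 12 lower, among them UGT88B1 (DN20303_c0_g1) with 361, 316 and 254 TPM in DG1, against 153, 197 and 179 TPM in DW1. The UDP-glycosyltransferase counts were 11 and 6 without DG1 replicate 1, 18 and 3 without DW1 replicate 1, and 4 and 5 without both.

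The cuticle list, with 9 of 86 genes higher and 17 lower (median -0.3), went both ways. Without DW1 replicate 1 the counts were 8 and 10 (median 0.11), and without DG1 replicate 1 they were 9 and 20 (median -0.33). CUT1 (DN13077_c0_g8), which elongates the fatty acids of wax, had 102, 52.1 and 46.8 TPM in DG1, against 16.2, 33.6 and 16.5 TPM in DW1 (1.67 ± 0.37, adjusted p = 0.133), and a lipid-transfer protein (DN14038_c1_g3) had 4584, 3063 and 2623 TPM in DG1, against 1655, 1496 and 1005 TPM in DW1. The lipid-transfer protein LTP8 (DN15700_c1_g3) lay the other way, with 1.47, 2.3 and 3.37 TPM in DG1, against 452, 5.78 and 3.95 TPM in DW1, and its log2 fold change was -6.11 with all libraries and -0.87 without DW1 replicate 1. Fatty acid desaturases had 8 of 50 members lower and 2 higher, or 11 and 0 without DG1 replicate 1 and 5 and 2 without DW1 replicate 1. FAD12 (DN19200_c0_g2), which adds the second double bond of linoleic acid, had 11.3, 25.9 and 33.2 TPM in DG1, against 48.6, 91.9 and 67.6 TPM in DW1 (-1.5, adjusted p = 0.166).

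Among hormone lists, abscisic acid genes had 9 of 91 members higher and 1 lower (median 0.18), or 2 and 2 without DG1 replicate 1 and 4 and 2 without DW1 replicate 1. The phosphatase HAB1 (DN15695_c1_g1), a brake on this hormone's signal, had 50.6, 43.5 and 41.9 TPM in DG1, against 36.1, 37 and 29.8 TPM in DW1. In the jasmonate list 6 of 48 stood higher and 3 lower, or 4 and 2 without DG1 replicate 1 and 3 and 2 without DW1 replicate 1. The synthesis gene OPR1 (DN17219_c1_g3) had 93, 53.4 and 55.3 TPM in DG1, against 35.1, 25.9 and 20.4 TPM in DW1, whereas the lipoxygenase LOX2.3 (DN14556_c0_g3) was nearly missing from DG1, with 0, 0.21 and 0.06 TPM in DG1, against 38.7, 21.6 and 0.49 TPM in DW1 (adjusted p = 0.103). LOX2.3 was itself uneven within DW1. The gibberellin synthesis gene LE (DN13041_c0_g2) had 36.9, 40.3 and 39.3 TPM in DG1, against 17.9, 10.7 and 15.8 TPM in DW1 (1.45, adjusted p = 0.162).

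Transcription factor lists held members on both sides. AP2/ERF factors had 10 of 78 members higher and 8 lower, or 4 and 4 without DG1 replicate 1 and 6 and 3 without DW1 replicate 1. RAP2-3 (DN15422_c0_g1), of a group tied in Arabidopsis to oxygen sensing, had 220, 310 and 306 TPM in DG1, against 132, 49.2 and 61.3 TPM in DW1 (1.91 ± 0.36, adjusted p = 0.0992, and a log2 fold change of 2.52 without both replicates 1). WRKY factors had 6 of 45 higher and 1 lower (median 0.58), but 2 and 3 without DG1 replicate 1 (median 0) and 0 and 0 without DW1 replicate 1 (median 0.52). The homeobox factor PDF2 (DN16985_c1_g1), which sets epidermal identity in Arabidopsis, had 7.43, 3.05 and 5.39 TPM in DG1, against 94.9, 15.7 and 29.7 TPM in DW1. The guard cell and epidermis sums given above were lower in DG1 by a narrow margin that rested on EPFL9, with members on both sides. Their part in this was not tested. ATHB-7 (DN20532_c1_g3), a water-deficit factor of Arabidopsis, had 111, 29.8 and 36.1 TPM in DG1, against 8.99, 19 and 1.29 TPM in DW1 (2.67, adjusted p = 0.216). The study tabulated 7 factors among the genes it found drought-responsive only in G1. That is another contrast than G1 against W1 under drought, so the values here do not test it. Of these factors, BHLH80 (DN18631_c1_g4) had 53.4, 29.7 and 33 TPM in DG1, against 16.5, 20.4 and 15.9 TPM in DW1 (1.25, adjusted p = 0.134). ERF1B (DN17717_c1_g4) and CRF4 (DN16635_c0_g3) had log2 fold changes of -1.34 and -1.63, also without overlap. PIF3 (DN18739_c1_g5), TCP9 (DN15838_c1_g1), FIT (DN15518_c1_g1) and KAN4 (DN15527_c1_g3) overlapped between the groups, with log2 fold changes of 0.03, 0.66, -1.54 and -1.46.

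Defence proteins had 10 of 47 members lower and 1 higher (median -0.66). The counts were 4 and 0 without DW1 replicate 1 (median -0.31), and 7 and 1 without DG1 replicate 1 (median -0.51). PR-1 (DN21415_c1_g4), a marker of salicylic acid defence, had 1.29, 32.9 and 10.2 TPM in DG1, against 76.4, 127 and 102 TPM in DW1 (-2.69, adjusted p = 0.201). Of 29 starch genes, 1 stood higher and 1 lower, or 5 and 1 without DG1 replicate 1, 2 and 3 without DW1 replicate 1 and 4 and 1 without both. The beta-amylase BAM1 (DN14349_c0_g4), which degrades leaf starch, had 280, 309 and 327 TPM in DG1, against 78, 235 and 108 TPM in DW1 (1.2, adjusted p = 0.208). Of 25 tested transcripts whose protein hit is encoded in the mitochondrion, 10 stood higher and 0 lower (median 1.09). The counts were 7 and 2 without DG1 replicate 1 (median 1.14), 7 and 0 without DW1 replicate 1 (median 0.97), and 5 and 2 without both (median 0.82). The subunit ND4 (DN16358_c1_g1) had 30.1, 38.9 and 29.8 TPM in DG1, against 18.8, 17.1 and 9.76 TPM in DW1. The libraries were enriched for polyadenylated RNA, and the share of organelle RNA that passed this step was not tested.

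Some transcripts were listed at 0 TPM in 1 group. The 1012 bp transcript DN15699_c0_g2, whose best plant hit is an uncharacterized sunflower protein, was at 0 in all 3 DG1 libraries, against 25.4, 16.9 and 18.4 TPM in DW1, and in well-watered leaves it had 20.7, 1.83 and 0.12 TPM in CG1, against 7.84, 27.4 and 31.4 TPM in CW1. A resistance gene fragment (DN19129_c0_g5, 257 bp) was at 0 in all DG1 and CG1 libraries, against 7.1, 7.64 and 5.12 TPM in DW1 and 15.2, 12.8 and 23.8 TPM in CW1. It was thus listed in 1 cultivar on both days. In the other direction a fragment of mitochondrial NADH dehydrogenase subunit 9 (DN15837_c0_g2, 485 bp) had 9.87, 7.54 and 2.08 TPM in DG1 and was at 0 in all DW1 libraries, and an unannotated transcript (DN16735_c0_g4, 447 bp) had 7.77, 5.46 and 11 TPM in DG1 and was at 0 in all DW1 libraries. DN16735_c0_g4 was listed in every well-watered library, at 11.4 to 12.5 TPM in CG1 and 3.27 to 12.1 TPM in CW1.

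Well-watered leaves showed which of these gaps were present on day 0, in libraries that are not in the drought fold changes but share with them the fit that set the p-values. Of 225 genes with a fit that were named for their drought values or list, 7 passed the test between CG1 and CW1 (148 of all genes did, 0.545%), and the sign was the same in droughted leaves for all 7. This count was 0 without CG1 replicate 3 or any 1 of the CW1 libraries, 1 without CG1 replicate 2, 4 without DG1 replicate 2 or 3, and 12 without CG1 replicate 1. The FERONIA-like kinase FER (DN21091_c0_g1), of a family that senses wall state, had 119, 453 and 595 TPM in CG1, against 27.2, 11 and 33 TPM in CW1 (4.26 ± 0.77, adjusted p = 0.0415). On day 4 it had 93.4, 84 and 84.9 TPM in DG1, against 8.65, 17.7 and 32.7 TPM in DW1 (2.17 ± 0.71, adjusted p = 0.216). The calmodulin-binding protein CAMBP25 (DN20778_c1_g4) had log2 fold changes of 3.62 on day 0 and 1.16 on day 4, ERF071 (DN19401_c0_g1) of 2.96 and 1.65, and the receptor-like kinase At5g57670 (DN19129_c0_g3) of -1.3 and -0.66. For none of these 4 did the difference between the gaps pass the test (adjusted p from 0.364 to 0.609).

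**Figure D4:**
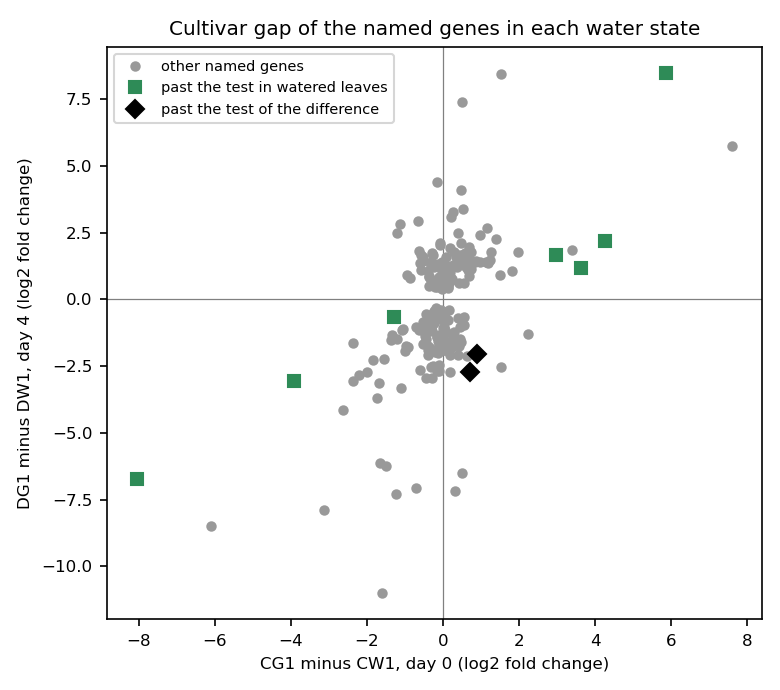
Log2 fold changes of the named genes, G1 minus W1, in well-watered leaves on day 0 (x axis) and droughted leaves on day 4 (y axis), from libraries not shared between the axes, in 1 fit. Green squares passed the test in well-watered leaves (7 genes) and black diamonds the test of the difference (2 genes, at -2.04 and -2.73 on day 4); values past about 5 in size belong mostly to genes listed at or near 0 in a group and depend on the prior count of the fit.

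The study chose 15 genes for qRT-PCR, and the primers are shown for 4 of them: 3 at least 5-fold higher in 1 library than in each other drought library and 1 whose groups did not overlap. Each primer is written 5′ to 3′.
LAR forward: agccctccttgtactcaacc
LAR reverse: ggctggcctgagttacaaac
CEL3 forward: ccaagtcgaaggaacgcaaa
CEL3 reverse: agcctcccgttaaatccaca
At5g56590 forward: cggcttgttctatcccaacg
At5g56590 reverse: ccacaggcataatcaagggc
At1g11820 forward: tgcgacggttgataatgcag
At1g11820 reverse: actggcgttgagttcccata
Leucoanthocyanidin reductase (LAR, DN21013_c0_g4), a step towards catechins, had 1.49, 0.31 and 0.57 TPM in DG1, against 112, 2.58 and 0.26 TPM in DW1. The endoglucanase CEL3 (DN18947_c0_g2) had 0.68, 1.64 and 0.64 TPM in DG1, against 111, 2.53 and 1.14 TPM in DW1, and the glucanase At5g56590 (DN17997_c0_g6) had 8.18, 3.25 and 2.59 TPM in DG1, against 67.2, 7.67 and 1.63 TPM in DW1. Among drought libraries these 3 were highest in replicate 1 of DW1, and without that library their log2 fold changes were -0.82, -0.85 and 0.94, against -5.38, -5.06 and -2.22 with all libraries. The glucanase At1g11820 (DN17456_c0_g1) had 4.62, 4.65 and 4.87 TPM in DG1, against 18.5, 12.7 and 6.34 TPM in DW1, without overlap (-1.26, adjusted p = 0.144).

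Of all 15 primer genes, 0 passed the adjusted test, 2 lay higher and 2 lower in DG1 without overlap, and 11 overlapped. Over all genes tested 0.00737% passed, and 18% did not overlap (7.02% higher and 10.9% lower), so these counts are not particular to the primer genes. The highest drought library was replicate 1 of DG1 for 7 and replicate 1 of DW1 for 6 of them. Without both replicates 1 the sign of the log2 fold change was the other one for 7 of the 15. The glutathione S-transferase HSP26-A (DN13914_c0_g2) had 20.3, 6.23 and 4.33 TPM in DG1, against 4.03, 1.86 and 2.72 TPM in DW1, and the hydroxycinnamoyltransferase HST (DN14056_c0_g1) had 113, 43 and 37.6 TPM in DG1, against 29.4, 22.7 and 35.7 TPM in DW1. Both lay higher in DG1 without overlap, with adjusted p-values of 0.323 and 0.257. The kinase ANP2 (DN981_c0_g1), which acts in stress signalling in Arabidopsis, had 7.71, 1.94 and 0.88 TPM in DG1, against 0.19, 2.01 and 1.02 TPM in DW1, while on day 0 it had 9.12, 79.3 and 65.6 TPM in CG1, against 0.46, 0.28 and 0.4 TPM in CW1 (adjusted p = 0.0337).

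**Figure D5:**
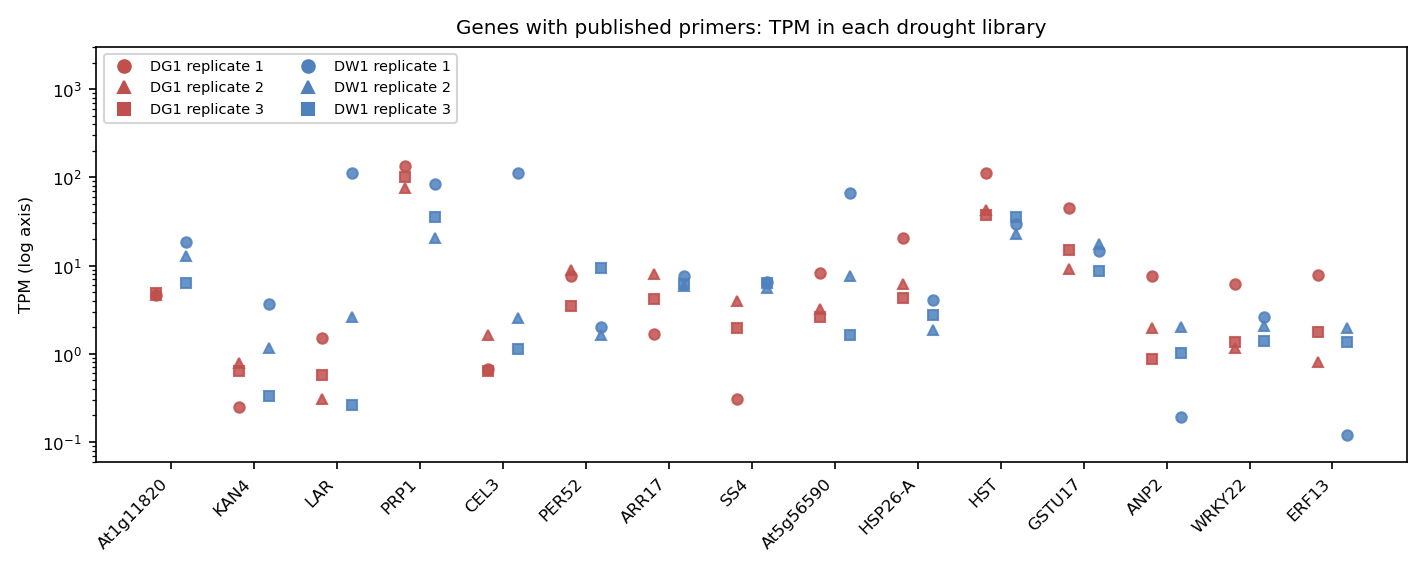
TPM on a log axis of the 15 genes with primers, with DG1 (red) left of DW1 (blue) and 1 symbol per library. The blue circles, replicate 1 of DW1, reach 112 TPM for LAR and 111 TPM for CEL3 while every other drought library stays at 2.58 TPM or less for these genes.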

How the data were processed

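The authors assembled the reads of all libraries with Trinity, without a reference genome, and estimated expression with RSEM, and they deposited expected counts (estimates per assembled gene, in part not whole) and TPM (which the authors' pipeline scales to gene length and library) with protein hits. Strand use is not given in the sources used here. Total expected counts were 15229565 to 19437963 in DG1 and 12415229 to 20787635 in DW1. Libraries were grouped by their titles. The label of CW1 replicate 1 says drought, against its title. The labels name a mouse genome build, which was not used.

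Expected counts were rounded, filtered with filterByExpr by group, TMM-normalized and fitted for all 12 libraries in edgeR 4.0.16 (R 4.3.3) with a mean per group and the quasi-likelihood test, and p-values were adjusted after Benjamini and Hochberg over every gene in the fit. A call needed an adjusted p under 0.05, a DEG also 4-fold. The SE is the size of the log2 fold change over the square root of F. The fit was tested on simulated counts. At a dispersion (spread between libraries) of 0.2, it recovered 1 of 100 genes changed 2-fold and 37 of 100 changed 4-fold. At a dispersion of 0.05 it recovered 56 and 100. The common dispersion of the data was 0.218, so a gene that missed the test may still differ. Setting the 264 tested genes at 0 in 1 group to a floor of 3 counts over the group moved no list median by over 0.03.

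Named genes were those past the test, the 12 with the smallest p per direction (land plant hit, 5 TPM, 2-fold, no overlap), up to 3 list members per direction by level, up to 6 at 0 in a group, and the study's primer genes and transcription factors. Members of small lists named beside these were chosen after their values were seen. Members and lists were chosen with earlier results of these data known. Alternatives were DESeq2 1.42.0, limma 3.58.1 voom quality weights, other scaling, filters and row sets, the replicate block and leaving out libraries.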

Additional observations from a re-analysis of the deposited data

Results flagged for a closer look

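In replicate 1 of DG1, rows with a SwissProt hit outside land plants and no hit in the NCBI NR protein database held 2.493% of TPM, against 0.222% and 0.232% in the other DG1 libraries and 0.141% to 0.246% in DW1. These rows were kept out of the comparison and held at most 0.206% in the well-watered libraries.

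For 2 genes the gap between cultivars differed between droughted and well-watered leaves by the interaction test, with log2 differences of -3.44 for DN18318_c0_g1 and -2.94 for the XTH DN13462_c0_g3 (edgeR adjusted p = 0.0225 each, fitted on expected counts). For DN18318_c0_g1 the TPM values show a smaller difference.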

How the results depend on the processing

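DG1 against DW1 called 2 genes, both DEGs. It called 0 with the 6 drought libraries alone, 12 (9 DEGs) with RLE size factors, 1 (1 DEG) with land plant SwissProt hits only, 6 (6 DEGs) without a filter on low counts, 58 (40 DEGs) with voom quality weights and 1133 (723 DEGs) with DESeq2; with the removed rows restored or robust dispersion it stayed at 2. Leaving out single libraries gave 0 to 40 genes and 0 to 34 DEGs, and leaving out both replicates 1 gave 0. Among named genes the comparison called 2, against 0 with the drought libraries alone, 114 with DESeq2, 6 with RLE, 1 with land plant hits only, 18 with voom, and 0 to 9 without single libraries. Between CG1 and CW1, named genes past the test numbered 7, against 20 with DESeq2, 20 with voom, 3 with land plant hits only and 0 to 12 without single libraries; for the difference of the gaps they numbered 2, against 28 with DESeq2, 1 with land plant hits only and 0 to 8 without single libraries. The causes were not tested. Of 5326 log2 fold changes of single genes under alternatives, 19 had the other sign, and none of those belonged to a gene named for its drought values. Genes named for their drought values were chosen in ways that leave their sign little room to change.

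Same-numbered DG1 and DW1 libraries correlated at 0.0582, 0.0309 and 0.0486 in their deviations from the group means. DG1 replicate 3 correlated best with DW1 replicate 2 (0.0602). In a principal component analysis of the drought libraries, replicate 1 lay at -126 in DG1 and 123 in DW1 on the first axis (36% of variance). On the second (24.1%) they lay together, at 86.3 and 97.2, against -54.2 to -39.1 in the other drought libraries. What the replicates 1 share was not tested. With the replicate block 3 genes passed (2 higher and 1 lower in DG1), 1 of the 2 calls was kept, and the XTH had an adjusted p of 0.076 (edgeR). Under the block, 1 named gene passed between CG1 and CW1, and 0 for the difference of the gaps.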
